A study of Mus musculus with 686 samples.

Results

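The mature microRNA miR-210-3p (mmu-miR-210-3p) is 1 of the 1964 miRNAs listed in small RNA sequencing of mouse tissues, and it was chosen by name, as a miRNA linked to low oxygen, and not by its values. It was read in all 686 libraries, as CPM, its count scaled to a total of 1000000 miRNA counts in each library. The libraries came from 13 tissues of 83 female BALB/cAnNTac mice aged 3 or 8 months. The tissues were brain, diaphragm, heart, kidney, liver, lung, pancreas, spleen, thymus, brown adipose tissue (BAT) and the gonadal, mesenteric and subcutaneous adipose tissues (GAT, MAT and SCAT). Spaceflight mice (FL) lived on the International Space Station (ISS). Habitat ground control mice (HGC) were kept on Earth in flight hardware at the temperature, humidity, carbon dioxide and cage density of the flight, and vivarium ground control mice (VGC) in standard cages. Each arm was divided by extraction. In live animal return (LAR, 348 libraries) FL mice came back after 39.5 days and were killed 2 to 4 days after landing, and tissues were frozen on liquid nitrogen within 10 to 16 minutes. In the ISS-terminated group (TERM, 338 libraries) mice were killed 22 to 24 days after launch, the spleen was put fresh into a stabilizing solution, and the carcass was frozen whole and thawed for 60 to 90 minutes before dissection. Ground controls followed the extraction of their flight mice. The sources differ on the anaesthetic of the LAR mice (gas in the labels, ketamine and xylazine in the study's methods). They also differ on freezing: an overview of the study's cohorts calls LAR slowly frozen and TERM snap frozen, the reverse of the labels and methods followed here. By the study's methods, LAR ground controls were also moved to the dissection site shortly before the flight mice returned. The LAR group had functional assays before collection, and HGC mice were matched to the prolonged crowded housing of the flight return. LAR and TERM therefore differ in time, transport, housing, testing, killing and freezing at once, also in ground controls, and these cannot be told apart.

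miRNAs are short RNAs that pair, mostly through the seed near their 5′ end, with messenger RNAs and lower their stability or translation. miR-210 is known as the miRNA that most cell types raise at low oxygen, when hypoxia-inducible factors act on its gene. Its best-known targets include ISCU, a scaffold for iron-sulfur clusters of mitochondrial enzymes, so that it is linked with lowered mitochondrial respiration, and it is studied in ischaemic heart, tumours and new vessel growth.

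The sequences below show what was counted, with the seed (bases 2 to 8) of each mature strand in capitals, and both mature strands in capitals within the hairpin. They are RefSeq entries read 5′ to 3′.
mmu-miR-210-3p: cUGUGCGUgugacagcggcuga
mmu-miR-210-5p: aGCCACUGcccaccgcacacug
Mir210 hairpin: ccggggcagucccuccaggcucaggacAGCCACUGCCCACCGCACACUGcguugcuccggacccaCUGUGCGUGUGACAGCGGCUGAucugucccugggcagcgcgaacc
In build GRCm38.p6 the 110-base hairpin is at chr7:141221384-141221493 on the minus strand, the 22 bases of miR-210-3p at chr7:141221407-141221428 and the 22 bases of miR-210-5p at chr7:141221445-141221466. The hairpin overlaps 0 other RefSeq genes, and 2725 bases separate it from Rassf7 and 6712 from Gm51460, so it is intergenic there. The authors counted on build GRCm39, whose coordinates were not used here. Of 1678 other mature mouse miRNAs in RefSeq, 0 share the seed of miR-210-3p and 0 share its bases 2 to 7. The nearest shares 15 of its 22 bases at offsets of up to 3.

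miRNA counts per library ranged from 0.181 to 30.5 M (M for 1000000), with a median of 3.88 M. By the rest of its miRNA profile, with miR-210 left out, 166 libraries (24.2%) were closest to the median of another tissue than their label, among them 47 of 57 MAT, 20 of 60 BAT, 19 of 59 diaphragm and 0 of 25 brain libraries. In 11 of the 44 library pools more than 1 in 3 libraries were of this kind. The summed markers of a tissue were highest in the tissue of that label for 8 of 13 tissues, while for kidney, lung, GAT, SCAT and MAT they were higher elsewhere, MAT having the 5th highest sum for its list. Results are therefore given with and without the 166 libraries where it matters.

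miR-210-3p was found in every library at a moderate level. Its median was 76.1 CPM over the 686 libraries, which ranked 177 of 1964, and it ranged from 1.67 to 336 CPM with a mean of 79.3 ± 31.7 (SD, n = 686). The median library held 285 counts of it, at which counting alone gives an error of 5.92%, and 1 library held under 10 counts. This library, of VGC brain from TERM (replicate 8), held 1 count among 0.598 M miRNA counts, where the brain median would give 24.7.

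The other strand of the hairpin, miR-210-5p, was nearly absent. It summed to 660 counts over all libraries against 224210 for miR-210-3p, which is 0.294% of both strands, and it had at least 1 count in 299 libraries and at most 15. The ratio of the strands was lowest in brain, at 177 counts of 3p per count of 5p, and highest in liver, at 668, with 37 and 23 counts of 5p behind these values. In LAR the ratio was 304 and in TERM 384. The counts of 5p were too few for a test per tissue.

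Tissues differed little in miR-210-3p. Kidney had the highest median at 97.0 CPM and brain the lowest at 41.2 CPM, 2.35-fold apart. From high to low, the adipose depots GAT and MAT followed kidney at 95.6 and 94.1 CPM. SCAT at 85.9, heart at 85.2, pancreas at 79.6, thymus at 77.2, BAT at 74.6, lung at 71.9 and spleen at 71.8 CPM lay close together. Liver at 60.1 and diaphragm, a striated muscle, at 44.1 CPM came just above brain. The range of libraries of each tissue overlapped that of its neighbour throughout, as the plot of levels by tissue shows.

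**Figure D1:**
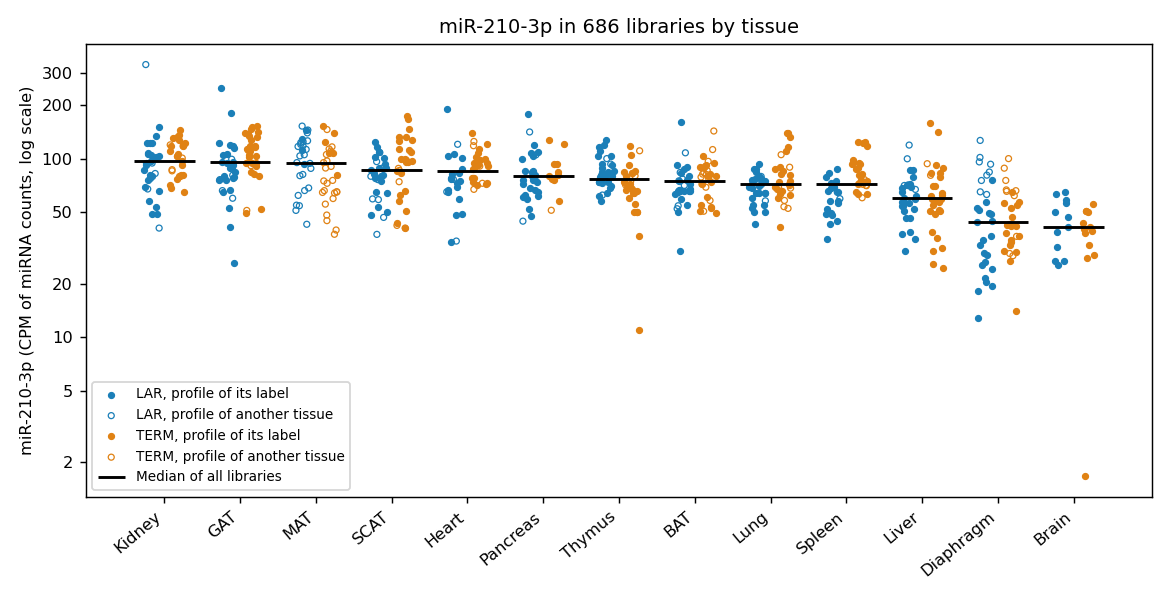
CPM of miR-210-3p (log axis) in each of the 686 libraries by tissue, in the order of the medians (black lines), with LAR in blue and TERM in orange and open points for libraries whose miRNA profile was closest to another tissue. Medians fall from 97.0 CPM in kidney to 41.2 CPM in brain, and the low points are a brain library at 1.67 CPM and a thymus library at 11.0 CPM.

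Neighbours in this order were compared on log2(CPM + 1) over the mice that gave both tissues, by a 2-sided sign-flip permutation test with Benjamini-Hochberg adjustment over the 12 pairs. In 1 pair the difference passed: liver was above diaphragm by 0.42 ± 0.89 log2 (SD of the paired differences, n = 57 mice, higher in 34), with an adjusted permutation p of 0.0107. Spleen was above liver by 0.30 ± 0.69 log2 in 36 mice, higher in 25, but the adjusted permutation p was 0.0792. The other 10 pairs had adjusted permutation p from 0.663 to 0.968, with mean differences from -0.17 to 0.12 log2, the lowest of them between diaphragm and brain in 9 mice by an exact test. No neighbouring pair from kidney down to spleen passed. Pairs further apart in the order, which came from these same libraries, were not tested.

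The libraries that match another tissue blurred some of these levels. The 40 diaphragm libraries with a diaphragm profile had a median of 37.0 CPM and the other 19 one of 75.5 CPM, so that diaphragm, not brain, was lowest without them. The 10 MAT libraries with a MAT profile had a median of 118 CPM and the other 47 one of 88.2 CPM. The fold between the highest and the lowest tissue was then 3.19, between MAT and diaphragm, and liver stayed above diaphragm by 0.59 log2 (adjusted permutation p = 0.00336).

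The order also depended on the scale, since levels between tissues are shares of what else was sequenced. As CPM of 7 RNA classes (lncRNA, piRNA, snoRNA, snRNA, rRNA and tRNA beside miRNA), heart was highest with a median of 11.9 and pancreas lowest at 1.63, 7.34-fold apart, and GAT dropped from the second place to the twelfth. With TMM factors, which set the bulk of miRNAs equal between libraries, heart was again highest at a median of 118 CPM, liver rose to the second place at 94.7 CPM, and brain remained lowest at 36.6 CPM. Liver was above diaphragm on both scales.

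Compared with other miRNAs, miR-210-3p varied little. Among 335 miRNAs with a median of at least 10 CPM, the fold between the highest and lowest tissue median, with 1 CPM added, was 2.32 for miR-210-3p and 15.2 for the median miRNA, and 10 miRNAs had a smaller one. Among the 89 miRNAs whose median was within 2-fold of its own, it had the third smallest fold between tissues. Its SD within groups of 1 tissue, arm, extraction and age was 0.44 log2, against a median of 0.73 log2 for those 89, of which it was the smallest. Without the libraries of another profile its SD was 0.41 log2, the seventh smallest of the 89, against a median of 0.55, and its fold was 3.13, again the third smallest. These ranks describe the libraries and are no test.

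**Figure D2:**
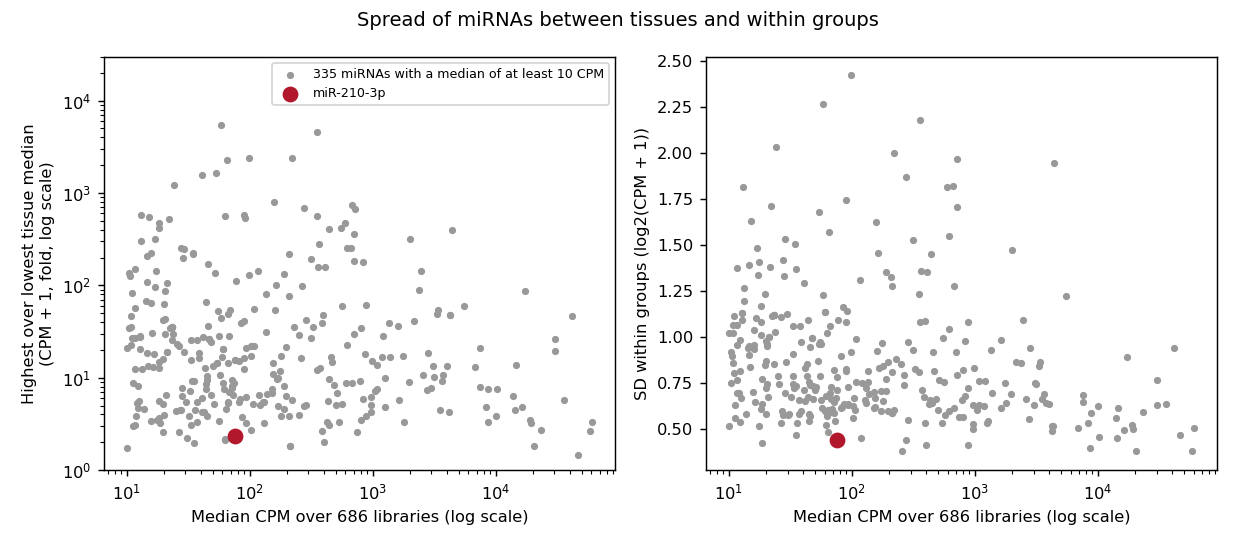
Each grey point is 1 of 335 miRNAs, by its median CPM over 686 libraries (log axis) and, at left, its fold between highest and lowest tissue median (log axis) or, at right, its SD within groups on the log2 scale. miR-210-3p (red) lies at the lower edge of both clouds, with a fold of 2.32 and an SD of 0.44.

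The miRNAs most like it across the 13 tissue medians, by Spearman's rho among 601 candidates, were miR-10b-3p (rho = 0.86), miR-10b-5p (0.82), miR-196b-5p (0.80), miR-28a-5p (0.75) and miR-152-5p (0.74). As the highest of 601 values over 13 medians, these were not set against chance. miR-10b and miR-196b lie in Hox gene clusters. Their order of tissues was like that of miR-210-3p, but their size of change was not, with miR-196b-5p at a median of 6080 CPM in kidney and 2.73 CPM in brain, 2230-fold apart. Within groups, among 334 candidates over 686 libraries, the highest Pearson's r of log2(CPM + 1) were those of miR-103-3p (r = 0.59), miR-148b-3p (0.55), miR-345-5p (0.55), miR-339-3p (0.55) and miR-188-5p (0.54). In the 520 libraries of their own profile these were 0.57 to 0.62. All points share a library and its total, and within groups the level of miR-210-3p had an r of -0.25 with the log2 share of miRNA in the 7 classes and of -0.09 with the log2 miRNA total. miR-103-3p is also on the hypoxia-linked list below.

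The comparison of LAR with TERM within ground controls asks whether anything that differs between these extractions moved a hypoxia-linked miRNA without any flight. For each tissue, edgeR's quasi-likelihood test was fitted to the counts of all miRNAs with TMM factors, and values are log2 fold changes with SE and Benjamini-Hochberg adjusted p. miR-210-3p passed in 0 of 13 tissues, 1 tissue had an unadjusted p under 0.05 (16.5% of tests over all miRNAs), and with DESeq2 the count was also 0. Over all miRNAs and tissues 4.32% of 13461 tests passed. The differences ran from -0.38 in spleen to 0.28 in brain, with 5 above and 8 below 0, and SEs from 0.13 to 0.33. Ages were unbalanced in brain, where the 8 LAR ground controls were all of 3 months and 3 of the 9 of TERM were of 8 months, and in pancreas, where 8 of the 18 LAR ground controls and 0 of the 7 of TERM were of 8 months. With age as a covariate the differences were 0.39 in brain and 0.04 in pancreas, against 0.28 and -0.14 without it. Single libraries also moved these values: without VGC TERM replicate 8, the library with 1 count, brain was 0.11 and no longer the highest, without VGC LAR replicate 5 it was 0.15, and without VGC TERM replicate 2 or 3 pancreas was 0.08 or -0.30. The replicate block gave -0.22 in brain, but its mouse numbers did not pair the samples, and only number 17 was in both extractions of brain. All 13 were within 1 log2 unit, a size at which the fit called 67% of miRNAs with a simulated 2-fold change in liver. Other tissues were not simulated, and the SE was 0.14 in liver, 0.28 in pancreas and 0.33 in brain.

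Spleen had the lowest value. In the 15 LAR ground control spleens miR-210-3p had a lowest value of 35.7, a median of 64.8 and a highest of 87.8 CPM, and in the 17 of TERM 60.4, 80.6 and 125 CPM. The groups overlapped, with 8 of the LAR libraries at or above the lowest of TERM. The difference was -0.38 ± 0.16 (SE), with an edgeR unadjusted p of 0.0251 and an adjusted p of 0.326, in a fit where 12.3% of miRNAs had an unadjusted p under 0.05. Without libraries of another profile it was -0.50, with an adjusted p of 0.0898. By arm it was -0.61 in VGC (unadjusted p = 0.00846, edgeR adjusted p = 0.209) and -0.15 in HGC (unadjusted p = 0.532), and whether the arms differed was not tested. The FL spleens were placed alike, with 6 LAR values from 48.2 to 75.3 CPM and 9 TERM values from 70.6 to 124 CPM, a difference of -0.74 ± 0.24 (SE) that did not pass in edgeR (adjusted p = 0.171) and passed in DESeq2 (-0.79, adjusted p = 0.0120). Spleen is the organ of TERM that was not frozen in the carcass. The summed CPM of 4 red cell miRNAs had a median of 88271 in LAR and 128488 in TERM ground control spleens. Other marker sums lay on either side, with medians of 70670 and 66509 CPM for white blood cells and 19993 and 25367 CPM for thymus. Their part in the result was not tested.

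Within HGC alone 0 of 13 tissues passed in edgeR, with 0 unadjusted p under 0.05 (13.4% over all miRNAs) and 0 calls in DESeq2. Within FL 0 passed, with 1 unadjusted p under 0.05 (15.1% over all miRNAs) and the DESeq2 call in spleen, and within VGC 1 passed in edgeR and in DESeq2, with 2 unadjusted p under 0.05 (13.4% over all miRNAs). Among all miRNAs 2.47%, 2.68% and 2.48% of tests passed, respectively. The call was heart of VGC, where 10 LAR libraries had a lowest value of 34.4, a median of 69.7 and a highest of 120 CPM, and 10 TERM libraries 86.9, 98.6 and 120 CPM. Of the LAR libraries 9 lay below every TERM library, and the other, replicate 9 at 120 CPM, had a miRNA profile closest to kidney. The difference was -0.76 ± 0.21 (SE, edgeR adjusted p = 0.0201), in a fit that called 7.56% of 1084 miRNAs, 2.68% of them lower in LAR. It was -0.74 without libraries of another profile (adjusted p = 0.0298), and near that size but uncalled with plate as a covariate (-0.71, 0.106) and without the mismatched pools (-0.67, 0.122). With the replicate block, whose mouse numbers did not pair the samples, it was -0.82 and uncalled (adjusted p = 0.226). It was smaller and uncalled with miRNA totals (-0.55, adjusted p = 0.0642) and with totals of the 7 classes (-0.47, 0.331). The red cell markers were lower in LAR too, from 23802 to 62042 CPM in LAR and from 70754 to 225037 CPM in TERM. Medians of other marker sums lay on either side. Those of LAR and TERM were 1930 and 1256 CPM for kidney, 310 and 165 CPM for brain, and 3548 and 4116 CPM for white blood cells. The part of any of them in the result was not tested. In hearts of HGC the difference was 0.41 ± 0.25 (SE, adjusted p = 0.571) and in those of FL -0.09 ± 0.25 (adjusted p = 0.876). In bulk tissue fewer cells of a type and less RNA per cell cannot be told apart.

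**Figure D3:**
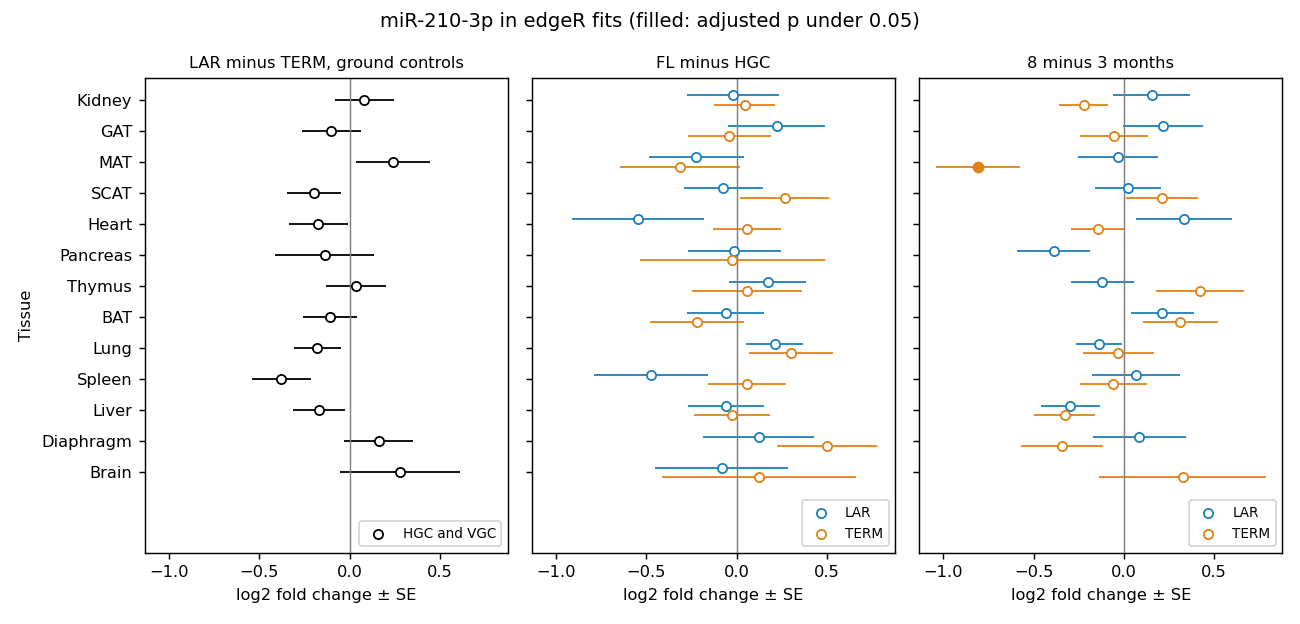
log2 fold changes of miR-210-3p with SE bars from edgeR, by tissue, for LAR minus TERM in the ground controls (left), FL minus HGC (middle) and 8 minus 3 months (right), the latter 2 in LAR (blue) and TERM (orange). The filled point, MAT of TERM at -0.81 for age, is the comparison that passed.

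The scale moved LAR against TERM, and turned its sign in 5 of 13 tissues (BAT, heart, liver, lung and pancreas). Among the ground controls, miRNAs made up a median of 7.74% of the counts of the 7 classes in LAR and 5.96% in TERM. With totals of the 7 classes in place of miRNA counts, the median of all miRNAs stood at 0.42 log2 for LAR minus TERM (the median over the 13 tissues), against -0.01 with TMM, and miR-210-3p was above 0 in 10 of 13 tissues, 5 of them above 0 with TMM too, while GAT, SCAT and spleen were below 0 on both. On this scale it passed in liver (0.78, adjusted p = 0.00208), MAT (0.91, 0.0421) and pancreas (1.38, 0.0324), where edgeR with TMM gave -0.17, 0.24 and -0.14. Many miRNAs passed there: 424 of 954 in liver, 228 of 985 in MAT and 350 of 843 in pancreas were higher in LAR, and 12, 32 and 7 lower. With age added as a covariate, an alternative chosen after seeing the data, miR-210-3p had 0.76 in liver (adjusted p = 0.00251), 1.02 in MAT (0.0138) and 1.48 in pancreas (0.0305). Relative to the median of all miRNAs of the tissue, miR-210-3p was lower in LAR on either scale in liver (-0.17 with TMM and -0.14 with the 7 classes) and pancreas (-0.60 and -0.45), and higher in MAT (0.34 on both). Over tissues the median of this relative difference was -0.15 with TMM and -0.14 with the 7 classes.

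**Figure D4:**
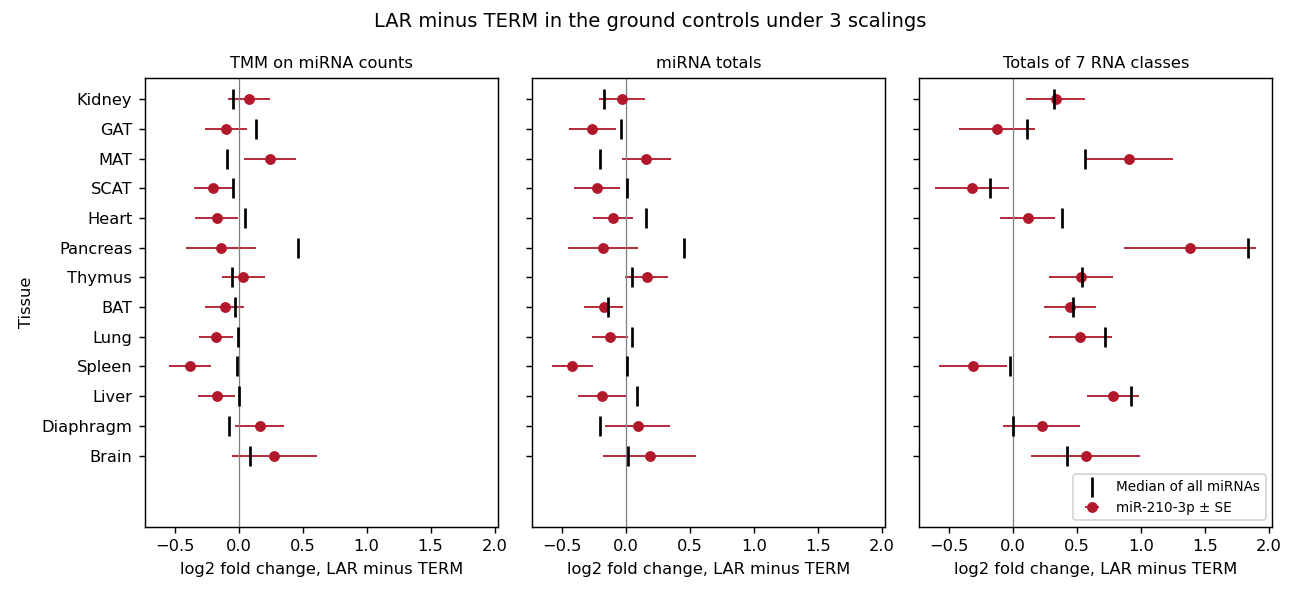
LAR minus TERM in ground controls by tissue, as log2 fold changes of miR-210-3p with SE (red) beside the median of all miRNAs tested (black ticks), with TMM factors (left), miRNA totals (middle) and totals of 7 RNA classes (right). At right both lie higher than at left in most tissues, the median of all miRNAs reaching 0.92 in liver and 1.84 in pancreas. In GAT and SCAT both lie lower, and in spleen the median alone does.

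Since tissues of 1 mouse are not replicates, a value per mouse was formed as the mean over its tissues of log2(CPM + 1) minus the mean of the tissue, for 60 mice with at least 5 tissues, 10 in each arm and extraction. LAR ground control mice averaged -0.04 ± 0.20 (SD, n = 20) and those of TERM 0.05 ± 0.13 (n = 20), a difference of -0.09 log2 with a 95% interval from -0.20 to 0.01. The 2-sided permutation test gave p = 0.0845, and 0.549 after adjustment over the 13 tests of values per mouse, of which 0 passed and 1 had an unadjusted p under 0.05. In HGC the difference was -0.01 (interval -0.16 to 0.14, adjusted permutation p = 0.970) and in FL -0.04 (-0.21 to 0.13, adjusted permutation p = 0.792). In VGC it was -0.18 (-0.33 to -0.02), with a permutation p of 0.0297 that did not hold after adjustment (0.386).

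Without the mismatched pools the VGC difference was -0.28 with an adjusted permutation p of 0.0148, and without each library of another profile -0.28 with 0.0448. With all 83 mice, also those with fewer than 5 tissues, it turned to 0.02 (adjusted permutation p = 0.997), and the difference in ground controls was -0.03. This rested on VGC TERM replicate 8, a mouse whose 1 library was the brain library with 1 count: without it the values were -0.23 (adjusted permutation p = 0.0753) and -0.12 (0.235), an alternative chosen after seeing the data. As CPM of the 7 classes the sign turned: LAR ground control mice were 0.30 log2 above TERM (adjusted permutation p = 0.000520), as were HGC by 0.35, FL by 0.36 and VGC by 0.25 (adjusted permutation p = 0.0585 for VGC). On that scale the share of miRNA itself was 0.49 log2 higher in LAR. Within the 8 plates of the study's sample list, LAR minus TERM of ground control libraries ran from -0.23 to 0.31 log2, below 0 in 5 plates, against -0.10 over all plates.

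**Figure D5:**
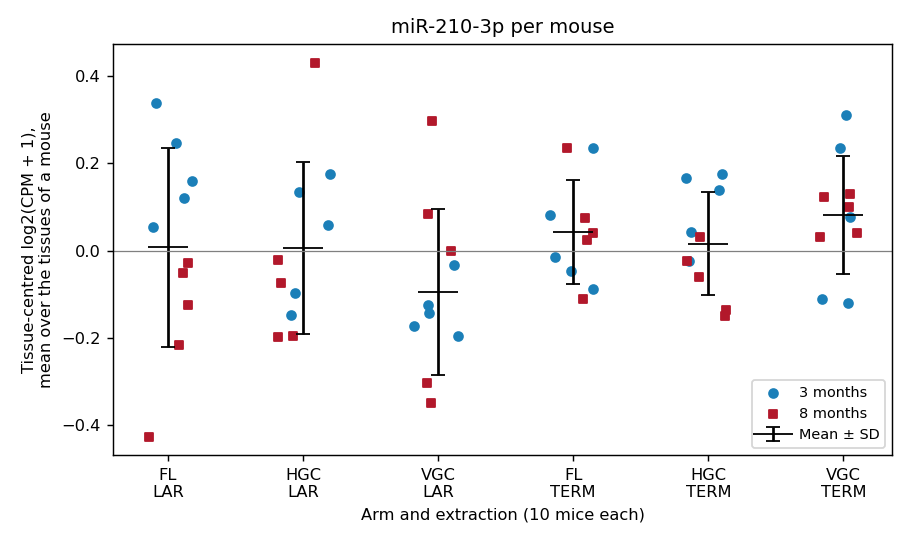
Value per mouse of miR-210-3p (tissue-centred log2(CPM + 1), averaged over the tissues of a mouse) for the 6 groups of arm and extraction, with mice of 3 months as blue circles, of 8 months as red squares, and bars for the mean ± SD of 10 mice. Groups overlap, and the mice spread more in LAR (SD 0.19 to 0.23) than in TERM (0.12 to 0.13), a difference that was not tested.

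Flight itself was compared against both ground controls within each tissue and extraction. miR-210-3p passed in 0 of 78 comparisons of FL, HGC and VGC, 1 had an unadjusted p under 0.05 (10.6% over all miRNAs) and DESeq2 also called 0, where edgeR called 0.622% of 74568 tests over all miRNAs. The differences ran from -0.55 to 0.99 log2, with a median of 0.04, and 40 were above 0. The largest was in LAR heart, where HGC exceeded VGC by 0.99 ± 0.32 (SE, edgeR adjusted p = 0.175). There the 6 HGC values ran from 65.2 to 189 CPM with a median of 91.8, and the 10 VGC values from 34.4 to 120 CPM with a median of 69.7. The 189 CPM came from replicate 16, which stood apart from the next at 104, and the 120 CPM from replicate 9, with a profile closest to kidney. FL of LAR heart had 6 values from 34.6 to 106 CPM, between the controls in its median of 76.2. FL was above VGC in both extractions in 5 tissues (brain, diaphragm, GAT, lung and SCAT), below it in both in 3 (kidney, liver and spleen), and on different sides in the other 5, with none of these differences passing in edgeR. In brain of TERM this was 0.33 with the library of 1 count and -0.01 without it.

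Brain, the tissue with the lowest median CPM over all libraries, was measured in 4 or 5 mice per group. In LAR the FL values were 56.4, 47.4, 26.8 and 58.3 CPM, those of HGC 65.1, 63.5, 31.9 and 41.2 CPM, and those of VGC 25.3, 39.0, 26.6 and 50.3 CPM. The groups overlapped, VGC being lowest in its median. In TERM, FL had 50.7, 40.4, 27.7 and 50.2 CPM, HGC 32.9, 38.5, 55.4, 39.5 and 29.0 CPM, and VGC 51.1, 41.3, 1.67 and 43.8 CPM. Apart from the library with 1 count, all lay within the same range. Pancreas of TERM had FL values of 51.4, 76.4, 93.8 and 84.0 CPM, HGC values of 76.5, 93.0, 121, 57.6 and 81.4 CPM and VGC values of 127 and 79.6 CPM, which overlapped too.

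On the value per mouse the arms were also close. In LAR, FL minus HGC was 0.00 (95% interval -0.20 to 0.20) and FL minus VGC 0.10 (-0.10 to 0.30), and in TERM they were 0.03 (-0.08 to 0.14) and -0.04 (-0.16 to 0.08). Their adjusted permutation p ran from 0.550 to 0.990. The intervals leave room for changes of up to about 0.30 log2 over all tissues. The difference of LAR minus TERM between FL and ground control mice was 0.06 log2 (adjusted permutation p = 0.782), -0.08 with all 83 mice (0.997) and 0.05 with all but VGC TERM replicate 8 (0.776). In single tissues that difference passed in 0 of 13 edgeR comparisons (1.23% over all miRNAs), with 0 unadjusted p under 0.05 (10.9% over all miRNAs) and 0 calls in DESeq2.

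Under the 7-class scale and the fold rule of the study (a log2 ratio of medians beyond 1 with Cohen's d beyond 0.5, taken here on CPM of the 7 classes with 1 added), GAT of LAR stood out. FL minus HGC was 1.58 in edgeR with totals of the 7 classes (adjusted p = 0.0405) and 1.06 by the fold rule, where the group medians on the 7-class scale were 5.04 and 1.89, and the exact rank-sum test on that scale passed too (adjusted p = 0.0244 over all miRNAs). FL minus VGC was 1.12 and past the fold rule, but did not pass in edgeR with totals of the 7 classes (1.11, adjusted p = 0.147) or in the exact rank-sum test (0.133). As CPM of miRNA counts, the 10 FL libraries of GAT had a lowest value of 64.6, a median of 94.0 and a highest of 181 CPM, and the 10 HGC libraries 52.7, 87.0 and 250 CPM. They overlapped nearly whole, and edgeR with TMM gave 0.22 ± 0.27 (SE, adjusted p = 0.809).

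Age was compared in 24 sets of tissue and extraction with both ages. miR-210-3p passed in 1 of them, against 0.709% of 23124 tests over all miRNAs. In MAT of TERM, 15 libraries of mice of 3 months had a lowest value of 37.7, a median of 97.1 and a highest of 153 CPM, and 14 of mice of 8 months 39.9, 65.2 and 146 CPM. The groups spanned the same range, and the difference of 8 minus 3 months was -0.81 ± 0.23 (SE, edgeR adjusted p = 0.0243), in a fit that called 12.8% of 933 miRNAs and 9.97% as lower. Of these libraries 13 of the 14 older and 10 of the 15 younger had the profile of another tissue, and 10 and 2 of them, respectively, were closest to spleen. The sum of 4 white blood cell miRNAs moved too, with a median of 22660 CPM at 3 months and 115143 CPM at 8 months and ranges of 2093 to 141818 and 9048 to 190554 CPM. Other marker sums were lower at 8 months, that of 2 smooth muscle miRNAs with medians of 158930 and 63889 CPM and that of 3 epithelial miRNAs with 1034 and 212 CPM. The part of these cells in the result was not tested. The call was lost without the mismatched pools (-0.82, adjusted p = 0.0532), with plate as a covariate (-0.80, 0.602), with miRNA totals (-0.35, 0.341) and with no filter on low counts (-0.77, 0.103).

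In MAT of LAR the age difference was -0.03 ± 0.22 (SE, adjusted p = 0.995), and whether it differed from that of TERM was not tested. In the other 23 sets differences ran from -0.39, in pancreas of LAR, to 0.42, in thymus of TERM. With totals of the 7 classes SCAT of TERM passed at 1.09 (edgeR adjusted p = 0.0168), against 0.21 with TMM. Over all tissues of a mouse, 8 minus 3 months was -0.10 log2 in LAR (95% interval -0.25 to 0.05) and -0.05 in TERM (-0.14 to 0.04), both with an adjusted permutation p of 0.550. The effect of flight against HGC differed between ages in 0 of 24 sets, against 0.588% of tests over all miRNAs, and 1 had an unadjusted p under 0.05 (9.99% over all miRNAs), with DESeq2 also at 0. This set was diaphragm of LAR, with a difference of differences of -1.34 ± 0.57 (SE, edgeR adjusted p = 0.226). There 3 of the 5 FL libraries of 3 months, 1 of 5 HGC of 3 months and 2 of 5 HGC of 8 months had the profile of another tissue, and without such libraries the value was -0.98 (adjusted p = 0.658).

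The other miRNAs linked to low oxygen were read from a list of 23, among them the miR-23, miR-24 and miR-27 cluster, the miR-181 family, miR-103 and miR-107, and miR-155. In LAR minus TERM of ground controls 7 of 294 tests of the list passed as higher and 4 as lower, or 3.74%, with a median of -0.04 log2 over those tests, beside 4.32% over all miRNAs, whose 13 tissue medians had a median of -0.01. The 4 smallest adjusted p were those of miR-192-5p in lung (-4.03 ± 0.66 SE, edgeR adjusted p = 3.63e-05), miR-23b-3p in pancreas (1.61 ± 0.30 SE, adjusted p = 0.000405), miR-27a-3p in MAT (1.08 ± 0.23 SE, adjusted p = 0.000458) and miR-155-5p in MAT (-2.0 ± 0.52 SE, adjusted p = 0.00305). miR-192-5p is abundant in kidney, liver and gut, and miR-155-5p in activated immune cells, and of the 58 lung and 57 MAT libraries 12 and 47 had the profile of another tissue. Among the arms 5 tests of 1758 passed as higher and 13 as lower (1.02%, beside 0.622% over all miRNAs), and for age 0 and 4 of 541 (0.739%, beside 0.709%).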

How the data were processed

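Small RNA libraries were sequenced by the authors, mapped to GRCm39 and counted against miRBase with miRMaster. The deposited miRNA values are estimated counts without normalization (0.790% carry a fraction), and the deposited values of lncRNA, piRNA, snoRNA, snRNA, rRNA and tRNA are whole counts. Adapter and quality settings are not given in the sources used here.

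Each miR-210-3p count was divided by the miRNA total of its library and multiplied by 1000000 (CPM). No library was left out. miRNA totals were 0.181 to 30.5 M. miRNA counts were rounded and fitted with edgeR 4.0.16 (limma 3.58.1, R 4.3.3), with TMM factors and quasi-likelihood tests, 1 fit per tissue for extraction and per tissue and extraction for arms and age, keeping miRNAs with at least 5 counts in 10% of a group, and adjusting p by Benjamini-Hochberg over all miRNAs at 0.05. Alternatives used DESeq2 1.42.0, other totals, filters, covariates and fewer libraries. Values per mouse and neighbouring tissues were compared by permutation (100000 resamples, exact for up to 14 mice in sign flips), with a pseudocount of 1, in Python 3.11.15 (scipy 1.17.1, numpy 2.4.6, pandas 2.3.3). Intervals of a difference come from its SE. Plots used matplotlib 3.10.9. The edgeR step was tested on simulated data (liver, 884 miRNAs), where 67% of 2-fold and 91% of 4-fold changes were called, as were 2.19% of unchanged miRNAs. Counting errors cover sampling of reads only.

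Groups and mouse numbers come from sample titles, which hold no age, ages from the other sample annotations, and pools and plates from the study's sample list. Mice of different arms share numbers but are different animals. Each library's profile over 525 miRNAs (miR-210 left out) was set against the tissue medians. Named miRNAs followed a rule: both strands of miR-210, the 5 most alike across tissues and within groups, and up to 4 of the hypoxia-linked list with the smallest adjusted p. The miRNA, the list and the comparisons were chosen with earlier results of these data known. circRNA and scaRNA counts were not used here.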

Additional observations from a re-analysis of the deposited data

Results flagged for a closer look

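The highest or lowest library of a group was compared with the others by Dixon's ratio in 83 groups of 4 to 10 libraries or mice, and 10 held a value that stood apart, where chance gives about 1 in 20 groups (4.15 here). In the HGC arm of LAR, replicate 16, a mouse of 8 months, was such a library in 3 tissues: BAT at 159 CPM (the next library at 88.1), GAT at 250 CPM (next 114) and heart at 189 CPM (next 104). The BAT and GAT libraries held 1.09 and 1.11 M miRNA counts, with miRNA at 1.96% and 0.936% of the 7 classes against group medians of 9.75% and 1.83%. As CPM of the 7 classes they had ranks 9 and 3 from the highest of 10, at 3.12 and 2.34, while the heart library, at 17.4% miRNA, was again the highest of 6. Its value per mouse, 0.43, was the highest of all 60. It was the highest of its group in 4 of its 11 tissues and above the group median in 8, and its libraries came from 8 pools on 5 plates.

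Among libraries with the profile of another tissue, 3 stood apart. They were a kidney of VGC in LAR (replicate 4) at 336 CPM with a profile closest to liver, where the others reached 123 CPM, a heart of VGC in LAR (replicate 9) at 120 CPM closest to kidney, and a BAT of VGC in TERM (replicate 13) at 143 CPM closest to spleen.

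The other 4 were closest to the profile of their label. GAT of FL in LAR (replicate 2) held 181 CPM, spleen of FL in TERM (replicate 16) 124 CPM and thymus of VGC in LAR (replicate 4) 128 CPM, each above the rest of its group. Thymus of FL in TERM (replicate 1) was the low one at 11.0 CPM, with 69 counts among 6.27 M miRNA counts, where the other 9 ran from 50.4 to 92.5 CPM. Its profile fitted thymus poorly, with an r of 0.215, where libraries closest to their label had a median r of 0.894.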

How the results depend on the processing

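Of 2677 single comparisons under alternatives, 2639 kept a call and its direction or stayed uncalled. Nearly all were uncalled in the main setting, where a turned sign also counted as unchanged, so this number says little about stability. Totals of the 7 RNA classes moved the most. They gave 3 calls in place of 0 for LAR minus TERM in ground controls (liver 0.78, MAT 0.91, pancreas 1.38). Over all miRNAs, calls there went from 271 higher and 311 lower with TMM to 1675 and 126, of 13461 tests. For miR-210-3p these totals also gave 1 call in HGC, 1 among the arms and 2 for age (MAT of TERM and SCAT of TERM), turned liver of VGC to 0.96, and lost heart of VGC (-0.47). With age as a covariate beside these totals, an alternative added after seeing the data, the counts were again 3 and 1, with liver at 0.76, pancreas at 1.48 and liver of VGC at 0.94. Per mouse they turned LAR minus TERM to 0.30 in ground controls, 0.35 in HGC and 0.36 in FL. Between tissues they gave 7 pairs past the threshold and a fold of 7.34 between highest and lowest, with kidney minus GAT at 1.44, heart minus pancreas at 2.44, pancreas minus thymus at -1.37 and BAT minus lung at -0.68. With TMM factors over all libraries 5 pairs passed, heart minus pancreas being 0.84 and spleen minus liver -0.50, and unpaired tests gave 2 pairs.

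For LAR minus TERM in VGC the single call, heart at -0.76, fell to 0 with miRNA totals (-0.55), no filter (-0.72), plate as a covariate (-0.71), the replicate block (-0.82) and without the mismatched pools (-0.67), and for age, MAT of TERM at -0.81, to 0 with the same settings except the block (-0.35, -0.77, -0.80 and -0.82), and without mismatched libraries, where MAT of TERM could not be fitted. DESeq2 gave 1 call in FL (spleen), and among the arms the study's fold rule gave 2 and the rank-sum test 1, all in GAT. Per mouse, VGC passed without the mismatched pools (-0.28) or libraries (-0.28) and turned to 0.02 with all mice. In TERM, FL minus VGC then turned to 0.23, HGC minus VGC to 0.18 and 8 minus 3 months to 0.15, none of them passing. Without VGC TERM replicate 8, the mouse with only the 1-count brain library, these 4 were -0.23, -0.06, -0.12 and -0.01. Plate 7 alone gave 0.31. Of 283 alternatives of tests per mouse 5 passed. Leaving out each brain or TERM pancreas library changed no call, but moved LAR minus TERM in ground controls between 0.11 and 0.40 in brain and between -0.30 and 0.08 in pancreas.

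Same-numbered mice of different arms were different animals, and their libraries deviated together with a median r of 0.0284 (653 pairs), against 0.0137 for other numbers, so the numbers did not pair the samples. With the replicate block, LAR minus TERM per mouse had an adjusted permutation p of 0.488 both in ground controls (-0.09) and in VGC (-0.18). In that block the numbers 3, 4, 13 and 14 joined LAR and TERM mice of different ages. For age within an extraction no paired analysis was possible, because there the numbers fix the age.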
